A study of Mus musculus with 6 samples.

Results

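The EGR, NR4A and IER early response genes are 9 of the 54532 genes in the deposited table of RNA-sequencing counts from mouse acute myeloid leukemia cells: *Egr1*, *Egr2*, *Egr3*, *Nr4a1*, *Nr4a2*, *Nr4a3*, *Ier2*, *Ier3* and *Ier5*. They were taken by gene name, and all 9 had a row. The list was chosen with earlier results of these data known, so its counts are a description. Leukemia was driven in both groups by RUNX1-ETO9a (RE9a), a truncated form of the RUNX1-ETO fusion, carried by a retrovirus that also encodes GFP. *WT Phf6,RE9a* cells came from Phf6 fl/y donors without Cre, and *VC Phf6,RE9a* cells from Vav1-Cre;Phf6 fl/y donors, in which Cre made under the Vav1 promoter deletes *Phf6* in the hematopoietic system. RNA was prepared from GFP+ cells sorted from bone marrow, with 3 libraries for each group, numbered 1, 2 and 3 for *WT Phf6,RE9a* (WT) and 11, 12 and 13 for *VC Phf6,RE9a* (VC). Donors and recipients were male, the methods for this model name fetal liver cells as the starting cells, and GFP+ cells were passed through serial transplants. Whether a group's 3 libraries came from different leukemias is not given in the sources used here, so p-values measure only the spread between these libraries, which may be technical.

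Early response genes are transcribed within minutes of a signal such as a growth factor, cytokine, antigen receptor ligand or stress, from promoters that are already occupied by factors such as SRF and CREB, and their RNAs are short-lived. EGR proteins are zinc finger transcription factors that bind GC-rich sites, and EGR1 is known for its part in monocytic differentiation and in keeping hematopoietic stem cells quiescent. NR4A proteins are orphan nuclear receptors, and combined loss of *Nr4a1* and *Nr4a3* in mice is known to cause acute myeloid leukemia. The IER genes share a name for their immediate early response rather than a protein family: *Ier2* and *Ier5* encode related nuclear proteins, and *Ier3* encodes a regulator of survival and stress signalling.

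Promoters of the members are shown because both SRF and CREB sites are known to serve early response. RefSeq's promoter table for GRCm38.p6 held windows of 300 bases (250 before the start site and 50 from it on) for 6 of the 9 members. *Egr1*, *Egr3* and *Ier2* had no entry. The core TGACG of the CREB site, read on both strands, was found in 6 of the members' 10 windows, 5 of which belong to *Egr2*, and in 20.8% of all 32851 windows of the same length. These 6 windows belong to 4 genes. *Nr4a1*, *Nr4a2* and *Nr4a3* each held 4 such cores in their window, a number reached by 76 (0.231%) of all windows. *Egr2* held 2 cores and a CArG box, the SRF site, which was found in 1.63% of all windows. The printed stretches end before the start site, and that of *Nr4a3* also before the first annotated exon, so that 3 of its 4 cores are shown. For *Nr4a1* and *Egr2*, exon positions were not compared. The words "outside its annotated exons" in their labels below are therefore unchecked and may be wrong. A further *Egr2* window, from 67537316 to 67537615, has its start site before the printed stretch. That stretch may thus lie in an exon of a transcript from there. In capitals are TGACG, or CGTCA where it lies on the opposite strand, and in *Egr2* also the CArG box:
*Nr4a1*, chr15:101266596-101266845, plus strand, within the gene's bounds and outside its annotated exons: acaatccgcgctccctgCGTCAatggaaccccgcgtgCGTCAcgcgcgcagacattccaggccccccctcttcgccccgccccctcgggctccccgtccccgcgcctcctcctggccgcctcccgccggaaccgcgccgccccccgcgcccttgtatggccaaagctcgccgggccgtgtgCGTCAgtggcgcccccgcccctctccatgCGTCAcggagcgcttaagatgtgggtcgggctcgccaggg
*Nr4a2*, chr2:57124004-57124253, minus strand, directly before the gene: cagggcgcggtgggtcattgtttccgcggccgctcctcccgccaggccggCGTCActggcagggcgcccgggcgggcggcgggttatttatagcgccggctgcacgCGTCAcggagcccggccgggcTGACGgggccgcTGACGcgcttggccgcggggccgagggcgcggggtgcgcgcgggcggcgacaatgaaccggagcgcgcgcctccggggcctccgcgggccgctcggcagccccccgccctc
*Nr4a3*, chr4:48045055-48045152, plus strand, directly before the gene: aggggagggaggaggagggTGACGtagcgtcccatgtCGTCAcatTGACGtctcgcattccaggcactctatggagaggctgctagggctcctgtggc
*Egr2*, chr10:67537619-67537868, plus strand, within the gene's bounds and outside its annotated exons, 1 of 5 windows listed for this gene: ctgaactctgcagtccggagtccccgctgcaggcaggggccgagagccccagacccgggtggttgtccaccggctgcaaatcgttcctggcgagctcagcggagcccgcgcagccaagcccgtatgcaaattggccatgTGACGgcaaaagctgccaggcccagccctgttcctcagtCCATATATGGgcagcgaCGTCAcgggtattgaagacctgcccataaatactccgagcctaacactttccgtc

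A match is a description of the letters and not of binding. Of the other motifs searched on both strands, the GC box GGGCGG was found in 7 of the members' 10 windows (35.7% of all windows). The EGR site GCGNGGGCG was found in 2 of the 10 windows, those of *Nr4a1* and *Nr4a2* (5.55% of all windows), and overlaps the GC box in its letters. The NF-κB site was found in 3 of the 10 windows, 1 each of *Egr2*, *Ier3* and *Nr4a1* (8.46% of all windows). The full CREB palindrome TGACGTCA, which contains the core, the AP-1 site TGANTCA and the NR4A site AAAGGTCA were found in 0 of the members' windows and in 1.79%, 7.81% and 1.51% of all windows. The ETS site CCGGAA was found in 2 and the TATA box TATAAA in 1 of the members' 10 windows, against 14.9% and 13.6% of all windows.

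Total counts per library ran from 15675358 to 16817994. *Phf6*, the deleted gene, had 1044, 827 and 1142 counts in WT cells and 388, 314 and 331 in VC cells, so that the libraries matched their labels (log2 fold change -1.66, standard error 0.13, edgeR's adjusted p = 9.32e-05). Of the 14169 genes that passed the filter on low counts, 22.7% were lower and 21.5% higher in VC cells at an adjusted p under 0.05 from edgeR's quasi-likelihood test, 44.2% in all, and counts over the members are set against these shares. Of 8 hematopoietic and myeloid markers all were read, 2 fell (*Cd33*, *Cd34*) and 3 rose (*Mpo*, *Elane*, *Prtn3*). *Cd34*, a marker of progenitor cells, lay at 383 ± 339 CPM (read counts relative to the TMM-scaled library size, mean ± SD, n = 3) in WT and 15.5 ± 14.0 CPM in VC cells. *Runx1* lay at 875 ± 65.3 and 726 ± 11.3 CPM and did not pass the threshold (edgeR's adjusted p = 0.0547). In bulk RNA, fewer cells that express a gene and less RNA per cell cannot be told apart.

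All 9 members passed the filter on low counts. In VC cells 7 of the 9 were lower (*Egr1*, *Egr2*, *Egr3*, *Nr4a1*, *Nr4a2*, *Nr4a3* and *Ier3*), 0 were higher, and *Ier2* and *Ier5* did not pass the threshold. The background of this count is 22.7% of all genes tested (44.2% for a call in either direction), and since the list was drawn up with earlier results known, the count is not independent evidence of its direction. A fall of at least 2-fold was seen in 6 members, against 11.5% of all genes, and of at least 4-fold in 5 members (*Egr2*, *Egr3*, *Nr4a1*, *Nr4a2* and *Nr4a3*), against 5.23% of all genes. The median log2 fold change of the members was -2.35, beside 0.01 over all genes tested. For 8 of the 9 members every VC library lay under every WT library, which held for 28.4% of all genes tested, and 0 members lay apart in the other direction, which held for 28.9%. For 1 gene alone, 3 against 3 libraries allow an exact two-sided permutation p no smaller than 0.1.

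**Figure D1:**
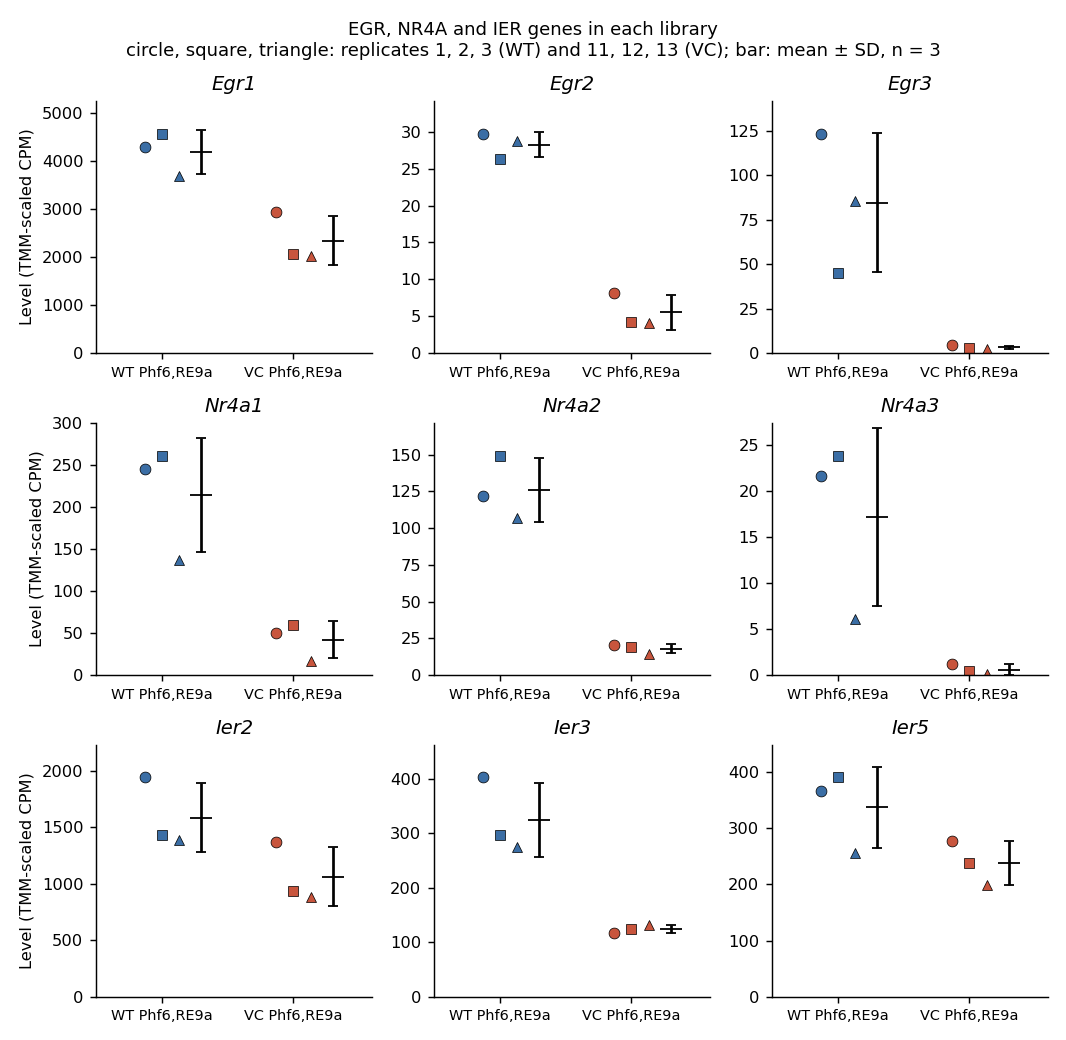
Level of each EGR, NR4A and IER gene in every library (vertical axis, CPM after TMM scaling, starting at 0 in each panel), for *WT Phf6,RE9a* (blue) and *VC Phf6,RE9a* (red) cells, with circle, square and triangle for replicates 1, 2, 3 and 11, 12, 13 and bars for mean ± SD (n = 3). The groups are apart in every panel but that of *Ier5*, and for *Ier2* the lowest *WT Phf6,RE9a* library (1386 CPM) and the highest *VC Phf6,RE9a* library (1366 CPM) nearly meet.

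Among the EGR genes, *Egr1* stayed abundant while *Egr2* and *Egr3* fell to a few CPM. *Egr1* (chromosome 18, 34859823 to 34864984, GRCm38, plus strand) had 66288, 67379 and 60903 counts in WT cells and 49785, 35423 and 34121 in VC cells. All 3 VC libraries lay under the WT libraries, with replicate 11 highest among them. The mean went from 4187 ± 454 to 2344 ± 516 CPM (SD, n = 3), 1.79-fold lower, a log2 fold change of -0.84 (standard error 0.18, edgeR's adjusted p = 0.00731).

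*Egr2* (chromosome 10, 67535475 to 67542188, plus strand), which is known for its part in myelination and in lymphocyte tolerance, had 458, 388 and 475 counts in WT cells and 139, 73 and 68 in VC cells. The WT libraries lay close together, from 26.3 to 29.7 CPM, and the lowest of them was 3.21 times the highest VC library. Its mean was 28.3 ± 1.75 CPM in WT and 5.50 ± 2.35 CPM in VC cells, 5.13-fold lower (log2 fold change -2.36, standard error 0.28, edgeR's adjusted p = 0.000492).

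*Egr3* (chromosome 14, 70077203 to 70082614, plus strand), which acts beside *Egr2* in lymphocytes, had 1900, 665 and 1411 counts in WT cells and 73, 53 and 42 in VC cells. The WT libraries differed among themselves by 2.73 times, with replicate 2 lowest, and even that library was 10.5 times the highest VC library. The mean fell from 84.6 ± 39.1 to 3.30 ± 0.925 CPM, 25.6-fold (log2 fold change -4.68, standard error 0.41, edgeR's adjusted p = 0.000146). Of all genes tested, 0.967% had a lower log2 fold change.

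The EGR genes thus fell by unequal amounts. In CPM per kilobase of the deposited gene length, *Egr1* made up 97.1% ± 1.03 (SD, n = 3) of the summed EGR level in WT cells and 99.6% ± 0.0662 in VC cells. *Egr3* held 2.03% ± 0.938 of that sum in WT cells, more than the 0.873% ± 0.124 of *Egr2*. In VC cells the order turned, with 0.300% ± 0.0580 for *Egr2* and 0.142% ± 0.0147 for *Egr3*. In CPM not divided by gene length, the log2 ratio of *Egr1* to *Egr3* was 5.12, 6.66 and 5.43 in WT cells. In VC cells it was 9.41, 9.38 and 9.67. That of *Egr2* to *Egr3* was -2.05, -0.78 and -1.57 in WT cells and 0.93, 0.46 and 0.70 in VC cells. Both ratios were higher in every VC library, at the smallest p that the exact permutation test allows (0.1, or 0.15 adjusted over the 9 pairs compared within families), so that the ratios do not pass a threshold of 0.05.

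The 3 NR4A genes all fell. *Nr4a1* (chromosome 15, 101254269 to 101274795, plus strand), which encodes NUR77, had 3774, 3851 and 2260 counts in WT cells and 851, 1013 and 283 in VC cells. Replicate 3 was lowest among the WT libraries and replicate 13 among the VC libraries, where the highest was 3.51 times the lowest. Its mean went from 214 ± 67.7 to 42.0 ± 22.3 CPM, 5.10-fold lower (log2 fold change -2.35, standard error 0.45, edgeR's adjusted p = 0.00445).

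*Nr4a2* (chromosome 2, 57106830 to 57124003, minus strand), which encodes NURR1, had 1882, 2203 and 1762 counts in WT cells and 341, 329 and 242 in VC cells. Libraries of each group lay close together, within 1.40 times of each other, and the groups were far apart. With a mean of 126 ± 21.7 CPM in WT and 17.9 ± 3.08 CPM in VC cells, 7.04-fold lower, it had the smallest adjusted p of the members (log2 fold change -2.82, standard error 0.17, edgeR's adjusted p = 4.39e-05).

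*Nr4a3* (chromosome 4, 48045153 to 48086447, plus strand), which encodes NOR1, had 333, 351 and 100 counts in WT cells and 20, 8 and 1 in VC cells. It varied most of the members within both groups, by 3.93 times among WT and 19.9 times among VC libraries, and the single count of replicate 13 is under the 3 counts taken as the floor of a library. The groups were still apart, by 5.13 times between the lowest WT and the highest VC library. Its mean went from 17.2 ± 9.68 to 0.569 ± 0.568 CPM, 29.7-fold lower (log2 fold change -4.89, standard error 0.80, edgeR's adjusted p = 0.00221). Without VC replicate 11 the log2 fold change was -5.97. The value with all libraries was the lowest log2 fold change of the members, and 0.854% of all genes tested had a lower one.

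Within the NR4A family, per kilobase, *Nr4a1* held 63.6% ± 4.39 of the sum in WT and 69.6% ± 10.7 in VC cells, and *Nr4a2* 33.6% ± 5.47 and 29.9% ± 11. Both shares overlapped between the groups. *Nr4a3* held 2.82% ± 1.12 and 0.497% ± 0.462, with every VC library under every WT library. In CPM not divided by gene length, the log2 ratio of *Nr4a1* to *Nr4a3* was 3.50, 3.46 and 4.50 in WT cells. In VC cells it was 5.41, 6.98 and 8.14, the last from 1 count of *Nr4a3* (exact permutation p = 0.1, 0.15 adjusted over the 9 pairs). The ratios of *Nr4a1* to *Nr4a2* (p = 0.5, exact) and of *Nr4a2* to *Nr4a3* (p = 0.2, exact) overlapped.

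Of the IER genes, *Ier3* passed the threshold and *Ier2* and *Ier5* did not. *Ier3* (chromosome 17, 35821684 to 35822923, plus strand) had 6191, 4371 and 4540 counts in WT cells and 1995, 2132 and 2214 in VC cells. It was the one member that was not lowest in replicate 13, and its VC libraries lay from 118 to 132 CPM with replicate 13 highest. The mean went from 324 ± 68.0 to 125 ± 6.88 CPM, 2.61-fold lower (log2 fold change -1.38, standard error 0.15, edgeR's adjusted p = 0.000341).

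*Ier2* (chromosome 8, 84661331 to 84662852, minus strand) had 29890, 21101 and 22903 counts in WT cells and 23137, 16132 and 14873 in VC cells. Once scaled, the lowest WT library was 1.01 times the highest VC library, so the groups were barely apart. Its means were 1586 ± 308 and 1063 ± 264 CPM (log2 fold change -0.58, standard error 0.20, edgeR's adjusted p = 0.0525), and it did not pass the threshold. The call turned with single libraries: the adjusted p from edgeR was 0.0495 without WT replicate 3 and 0.0194 without VC replicate 11.

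*Ier5* (chromosome 1, 155096361 to 155099636, minus strand), whose product takes part in activating the heat shock factor HSF1, had 5651, 5750 and 4215 counts in WT cells and 4698, 4095 and 3335 in VC cells. The groups overlapped, since WT replicate 3 (255 CPM) lay under VC replicate 11 (277 CPM). Its means were 337 ± 72.2 and 238 ± 39.6 CPM (log2 fold change -0.50, standard error 0.18, edgeR's adjusted p = 0.0578), which did not pass the threshold. Without WT replicate 3 the adjusted p from edgeR was 0.0102. Per kilobase, *Ier2* held 72.8% ± 1.44 of the summed IER level in WT and 78.8% ± 3.30 in VC cells, *Ier3* 20.0% ± 0.359 and 12.9% ± 2.97, and *Ier5* 7.25% ± 1.52 and 8.29% ± 0.706. The shares of *Ier2* and *Ier3* were apart between the groups and that of *Ier5* overlapped.

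**Figure D2:**
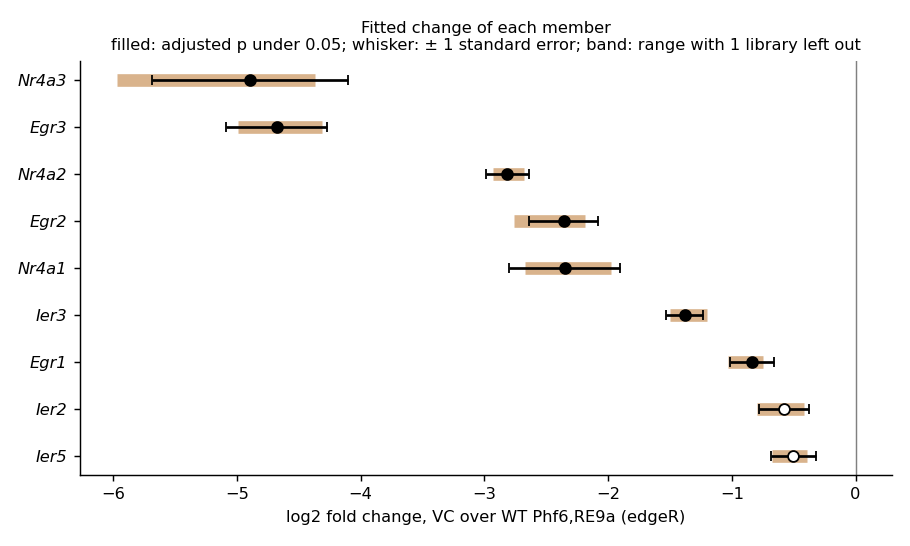
Log2 fold change of each member (*VC Phf6,RE9a* over *WT Phf6,RE9a*, horizontal axis) from edgeR with ± 1 standard error, filled where the adjusted p is under 0.05, and bands for the range when 1 library is left out. The members run from -4.89 (*Nr4a3*) to -0.50 (*Ier5*), and every band stays below 0.

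Summed per kilobase, the EGR genes lay at 961 ± 98.6 CPM per kilobase in WT and 525 ± 116 in VC cells, the NR4A genes at 95.0 ± 25.6 and 16.5 ± 7.13, and the IER genes at 1432 ± 273 and 881 ± 179 (SD, n = 3). No sum overlapped between the groups. *Egr1* carried most of the EGR sum and *Ier2* most of the IER sum, so that both sums follow their most abundant member, whose own differences were among the smallest of the 9. Together the members took 0.591% to 0.692% of all counts in WT libraries and 0.344% to 0.497% in VC libraries.

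**Figure D3:**
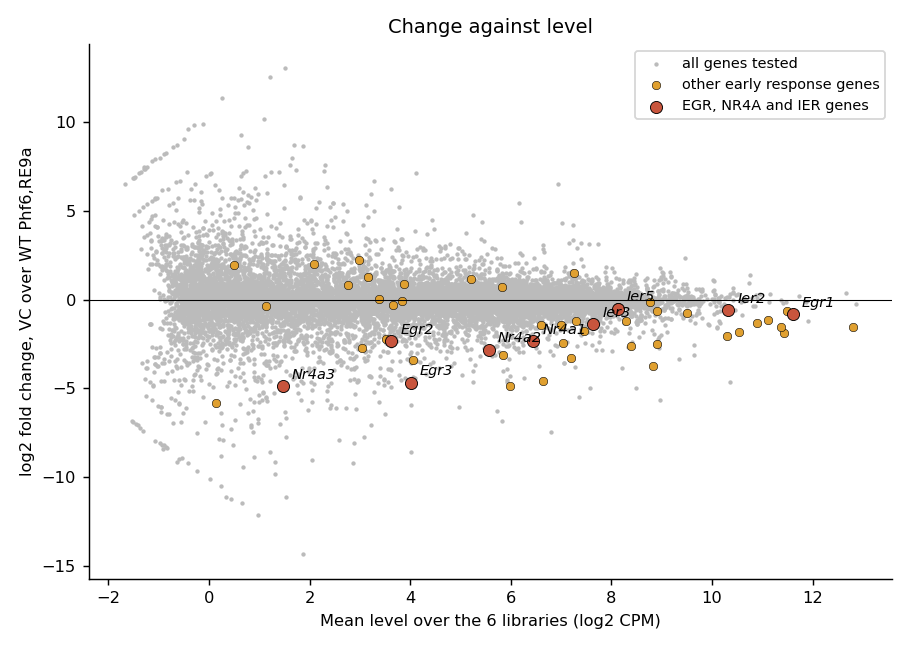
Log2 fold change (*VC Phf6,RE9a* over *WT Phf6,RE9a*, vertical axis) against mean level over the 6 libraries (horizontal axis, log2 CPM) for the 14169 genes tested (grey), other early response genes (orange) and the 9 members (red). All 9 members lie below 0, *Egr1* and *Ier2* at the right with small differences, and *Nr4a3* and *Egr3* at lower levels with differences beyond -4.

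The libraries of a group kept a similar order from member to member. WT replicate 3 was lowest of its group for 7 of the 9 members and highest for 0. VC replicate 11 was highest for 7 members and replicate 13 lowest for 8. The median over the members of the log2 level relative to the WT mean was -1.77 in replicate 11, -1.80 in replicate 12 and -2.77 in replicate 13, against 0.25, 0.13 and -0.22 in WT replicates 1, 2 and 3. Other early response genes had a similar order, with replicate 11 highest for 37 and replicate 13 lowest for 36 of the 42 tested. Markers of maturing granulocytes and monocytes also followed it within VC cells, with replicate 11 highest and replicate 13 lowest for 10 of 10, while within WT cells replicate 3 was highest for 9 of the 10 markers. The part of this order in the members' levels was not tested.

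**Figure D4:**
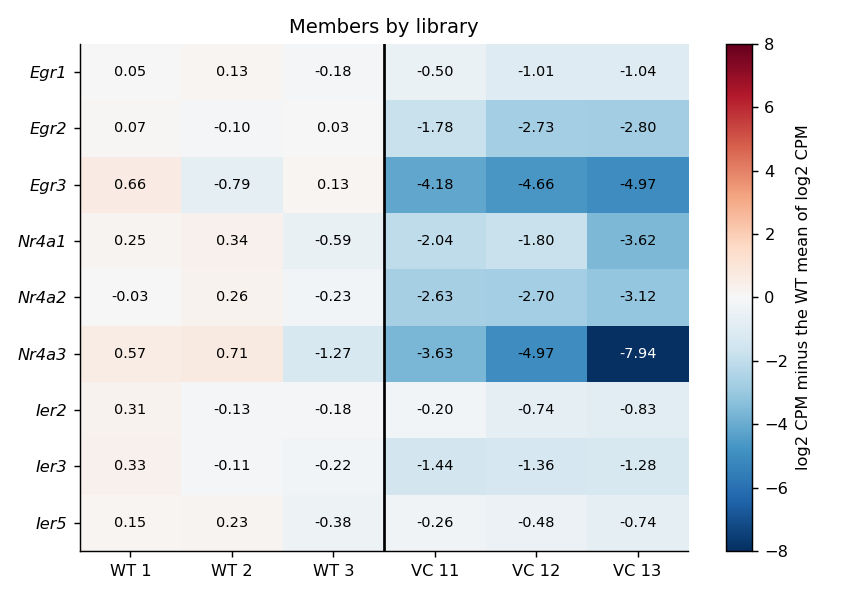
Log2 CPM of each member (rows) in each library (columns) minus the mean of log2 CPM over the *WT Phf6,RE9a* libraries, with no prior count, on a color scale from -8 (blue) to 8 (red), with the value in each cell. *VC Phf6,RE9a* values run from -0.20 (*Ier2*, replicate 11) to -7.94 (*Nr4a3*, replicate 13), and *WT Phf6,RE9a* values from -1.27 to 0.71, both in *Nr4a3*.

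The patterns most like those of *Egr1*, *Nr4a1* and *Ier2* were looked for among 11442 genes, by the root mean square distance between log2 CPM values centred on each gene's mean over the 6 libraries. Among the genes nearest to *Egr1* were *Mast3* (distance 0.0857) and *Tmem230* (0.0859). *Slc2a6* (0.262), *Atp8b2* (0.264) and *Plxnd1* (0.272) were nearest to *Nr4a1*, at larger distances. For *Ier2* they were *Zbtb21* (0.0312), *Herpud1* (0.0778) and *Srf* (0.0847), which encodes the serum response factor. The 6 libraries fall into 2 groups, so genes with a like difference between the groups come near each other.

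The wider class of early response genes was read from a list of 45 others, chosen with earlier results of these data known. Of the 42 tested, 26 were lower, 5 were higher and 11 did not pass the threshold, and their median log2 fold change was -1.28, beside a background of 22.7% lower and 21.5% higher among all genes tested. *Cd69*, an early surface marker of activation, went from 358 ± 53.8 to 12.3 ± 5.78 CPM (log2 fold change -4.86, standard error 0.35, edgeR's adjusted p = 7.36e-05). *Rgs1*, a regulator of G protein signalling, went from 1708 ± 644 to 128 ± 20.5 CPM (log2 fold change -3.74). *Nfkbiz*, an NF-κB cofactor, had a log2 fold change of -3.28 and *Dusp5*, a phosphatase that inactivates ERK, of -4.62. The AP-1 genes *Fos* and *Fosb* were abundant in both groups and fell from 5394 ± 1572 to 1476 ± 241 CPM and from 12420 ± 3225 to 4307 ± 1491 CPM (log2 fold changes -1.87 and -1.53). The 5 higher genes were *Klf10*, *Dusp2*, *Myc*, *Cebpd* and *Trib1*, named after their values were seen, with log2 fold changes from 0.74 (*Dusp2*) to 2.25 (*Trib1*). *Jun*, which also encodes an AP-1 subunit, missed the threshold (log2 fold change -0.67, edgeR's adjusted p = 0.169).

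**Figure D5:**
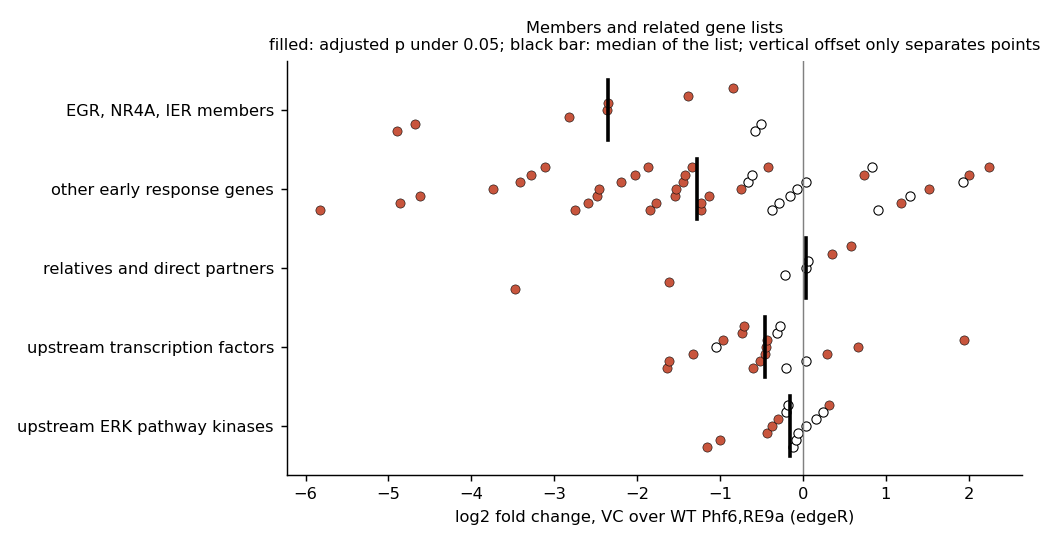
Log2 fold change (*VC Phf6,RE9a* over *WT Phf6,RE9a*, horizontal axis) of each tested gene of the members, other early response genes, relatives and direct partners, upstream transcription factors and upstream ERK pathway kinases, filled where edgeR's adjusted p is under 0.05, with a black bar at each median. The medians are -2.35, -1.28, 0.04, -0.46 and -0.15.

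Relatives and partners of the members were read from a list of 9 genes, of which 7 were tested. Of these 2 were lower, 2 higher and 3 did not pass the threshold, with a median log2 fold change of 0.04. These counts lie near the background of 22.7% lower and 21.5% higher among all genes tested. *Rxrg*, a retinoid X receptor, went from 46.2 ± 5.49 to 4.17 ± 0.954 CPM, 11.1-fold lower (log2 fold change -3.47, standard error 0.19, edgeR's adjusted p = 2.84e-05), and *Rxra*, which forms heterodimers with NR4A1 and NR4A2, had 99, 139 and 38 counts in WT and 39, 44 and 17 in VC cells (log2 fold change -1.62, edgeR's adjusted p = 0.0453). The groups of *Rxra* overlapped, and the list kept 1 lower gene in place of 2 when any library but WT replicate 3 was left out. *Rxrb* lay at 81.4 ± 9.47 and 83.8 ± 5.56 CPM (log2 fold change 0.04, edgeR's adjusted p = 0.781). *Nab1*, a corepressor that binds EGR proteins, rose from 174 ± 11.7 to 223 ± 20.7 CPM (log2 fold change 0.36, edgeR's adjusted p = 0.0216). *Hsf1* rose from 54.8 ± 4.51 to 81.9 ± 3.49 CPM (log2 fold change 0.58, edgeR's adjusted p = 0.00195). *Egr4*, the remaining EGR gene, had 4, 8 and 2 counts in WT and 0 in each VC library and was not tested.

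The list of upstream transcription factors of early response genes also holds cofactors (*Mrtfa*, *Mrtfb*, *Crtc1*, *Crtc2* and *Crtc3*). All 19 genes were tested. Beside the same background, 11 were lower, 3 higher (*Mrtfa*, *Atf1* and *Mef2c*) and 5 did not pass the threshold. The median log2 fold change of the 19 was -0.46. *Nfatc1*, a calcium-regulated factor, went from 120 ± 1.26 to 47.6 ± 2.51 CPM (log2 fold change -1.33). *Crem* and *Crtc3*, a CREB relative and a CREB coactivator, had log2 fold changes of -1.64 and -0.96, and *Mrtfb*, an SRF cofactor, of -1.61. The NF-κB subunit gene *Nfkb1* fell by 0.46 on the log2 scale, and *Rela* missed the threshold (log2 fold change -0.31, edgeR's adjusted p = 0.0807). *Srf*, which was among the genes nearest to *Ier2*, went from 92.7 to 61.0 CPM (log2 fold change -0.60, edgeR's adjusted p = 0.0291).

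Kinases of the ERK pathway, which carries growth factor signals to these promoters, were read from a list of 14. All were tested, and 5 were lower (*Braf*, *Map2k1* and *Mknk1* among them), 1 was higher (*Map2k2*) and 8 did not pass the threshold, with a median log2 fold change of -0.15, against 22.7% lower, 21.5% higher and 44.2% in either direction among all genes tested. *Map2k1*, which encodes MEK1, went from 84.2 ± 10.7 to 42.1 ± 2.07 CPM (log2 fold change -0.999), while *Map2k2*, which encodes MEK2, went from 122 ± 10.7 to 152 ± 3.54 CPM (log2 fold change 0.32). *Braf* fell by 1.16 and *Mknk1* by 0.43 on the log2 scale. *Mknk2* and *Rps6ka1*, the kinases of the list with the most counts, had log2 fold changes of 0.24 and -0.12 and did not pass the threshold (edgeR's adjusted p = 0.0525 and 0.288).

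Markers of mast cells, granulocytes, monocytes and erythroid cells moved with the groups. Whether the GFP+ leukemia cells themselves made these RNAs was not tested. Among all genes tested, 22.7% were lower and 21.5% higher. Of 12 mast cell and basophil markers 11 were lower, and their summed level was 19469 to 30767 CPM in WT and 4978 to 5429 CPM in VC libraries. *Cpa3*, a mast cell protease, went from 6749 ± 1507 to 274 ± 116 CPM and *Hdc*, which makes histamine, from 5973 ± 1853 to 2563 ± 104 CPM. Of 10 markers of maturing granulocytes and monocytes 9 were higher, with sums of 184 to 515 CPM against 1026 to 3855 CPM. *S100a9* went from 63.4 ± 40.7 to 584 ± 351 CPM and *Ngp* from 66.9 ± 46.2 to 501 ± 282 CPM. All 7 erythroid markers were higher, with sums of 1421 to 2166 CPM against 4646 to 5320 CPM, *Hbb-bs* at 1257 ± 287 and 2370 ± 174 CPM and *Hba-a1* at 316 ± 99.5 and 1620 ± 116 CPM, where reads may be split between near-identical globin genes. No marker of these 3 lists was at 0. Their part in the lower levels of the EGR, NR4A and IER genes was not tested.

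The remaining markers were read at low levels, and their counts stand beside the same shares of all genes tested. Of 5 B cell markers 4 were tested and all 4 were higher, but their summed level was 0.611 to 1.10 CPM in WT and 8.50 to 24.6 CPM in VC libraries. *Cd79b*, *Ms4a1* and *Pax5* had 0 counts in 1 or 2 WT libraries, and all were read in every VC library. T and NK cell markers summed to at most 3.96 CPM, none of the 8 was tested, *Cd3e*, *Cd3g*, *Cd8b1*, *Ncr1* and *Klrb1c* were at 0 in at least 1 library, and *Cd4* and *Cd8a* lay under 1 CPM on average in both groups. Of 7 macrophage markers 2 were higher (*Vcam1* and *Siglec1*), at sums of 13.4 to 25.4 CPM and 32.4 to 37.4 CPM, with *Mrc1* at 3.06 ± 1.34 and 4.16 ± 0.999 CPM. Of 6 stromal and endothelial markers 2 were tested and *Cxcl12* was higher (0.612 ± 0.295 and 3.41 ± 0.506 CPM), whereas *Kdr* did not pass the threshold (edgeR's adjusted p = 0.745). The part of these cells in the members' levels was not tested.

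Early response genes and heat shock genes are both known to respond to the handling of cells, so 6 heat shock genes were read as well. Of these 4 were higher in VC cells and 2 did not pass the threshold, against 21.5% higher among all genes tested. Summed, the 6 genes lay at 3075 to 4071 CPM in WT and 5948 to 6615 CPM in VC libraries. *Hsp90aa1* rose from 1163 ± 99.0 to 1476 ± 29.98 CPM, and *Hspa8* did not pass the threshold (edgeR's adjusted p = 0.158). *Hspa1a* and *Hspa1b*, the inducible HSP70 genes, were named after their values were seen. *Hspa1a* had 191, 109 and 215 counts in WT cells and 7800, 8990 and 7850 in VC cells, and *Hspa1b* had 168, 143 and 307 counts against 17902, 23220 and 20358, although reads may be split between this near-identical pair. The 4 heat shock genes that passed moved in the opposite direction to the 7 members that fell. Whether handling or sorting differed between the groups was not tested.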

How the data were processed

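The authors' table of RNA-sequencing of GFP+ leukemia cells was used (3 libraries for each genotype, Illumina TruSeq RNA kit). The authors deposited read counts per Ensembl gene without normalization, and FPKM values, which the authors scaled by gene length and library size. The deposited table also holds the authors' DESeq2 comparison, with a signal column for each group (mean normalized count), a log2 fold change and p-values, none of which was used. The submitters' processing notes name Bowtie 0.12.0 and mm8, yet 98.33% of the 54495 genes found in GENCODE M21 (GRCm38) have the same bounds there, so positions are given on GRCm38. Counting tool and strandedness are not given in the sources used here. No member is overlapped by another annotated gene.

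In R 4.3.3, edgeR 4.0.16 kept 14169 of 54532 genes (filterByExpr), scaled counts by TMM and ran the quasi-likelihood test, and p-values were adjusted by Benjamini-Hochberg over all genes tested (threshold 0.05). The standard error is the size of the log2 fold change over the root of the F statistic. Log2 CPM used a prior count of 2, except in ratios between members and in the heatmap, which used none. One read was worth 0.0583 to 0.0678 CPM, and a count of 3 was taken as the floor, which covers counting error only. Depth ran from 15675358 to 16817994 counts per library. The test was tried on simulated counts for this comparison, with 200 genes changed. Of those that passed the filter, it recovered 54 of 96 changed by 2-fold (56.2%) and 91 of 98 changed by 4-fold (92.9%). It called 10 of 13719 unchanged genes. In the data 44.2% of all genes tested were called, so these shares do not give the recovery in the real comparison.

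The members and lists were chosen with earlier results of these data known. The genes named were the 9 members, *Phf6*, in each pathway list the genes among its 4 smallest p whose groups did not overlap and the 2 with the highest mean CPM, the 3 nearest genes to *Egr1*, *Nr4a1* and *Ier2* whose mean log2 CPM was 1 or more, the 2 most abundant genes of each marker list, and others where stated or where a count of 5 or fewer is named. A few genes that this rule takes are not reported here. The alternatives were DESeq2 1.42.0, RLE, upper quartile and total count scaling, testing without a filter, a minimum of 10 counts in each library, limma 3.58.1 on log2(FPKM + 1), and leaving out each library. Exact tests used scipy 1.17.1 and figures matplotlib 3.10.9.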

Additional observations from a re-analysis of the deposited data

How the results depend on the processing

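*Egr1*, *Egr2*, *Egr3*, *Nr4a1*, *Nr4a2* and *Ier3* stayed lower in *VC Phf6,RE9a* cells and past the threshold under every alternative, and so did *Nr4a3* wherever it was tested (it does not have 10 counts in every library). *Ier2* and *Ier5* kept a negative sign throughout and passed with DESeq2 (adjusted p = 0.0146 and 0.0288) and with no count filter (edgeR's adjusted p = 0.0233 and 0.0292). The median log2 fold change of the members was -1.71 with limma on log2(FPKM + 1), which understates changes of low genes (*Nr4a3* had -1.71 and *Egr3* -3.43 there), and ran from -2.49 to -1.97 with 1 library left out. With total counts only, the median of all genes moved to 0.16 and 37.9% of all calls were lower, against 51.3% with TMM. With total counts only, 6 of the upstream transcription factors were lower, 3 ERK pathway kinases were lower and 3 higher, and 1 relative or partner was lower. 2 kinases were higher with upper quartile scaling and with at least 10 counts in every library, and 1 relative or partner was lower with limma. With 1 library left out, 3 (without WT 2 or VC 11) to 8 (without VC 13) other early response genes were higher. Lower upstream transcription factors numbered 7 (without WT 1, VC 12 or VC 13) to 12. Of the kinases, 3 (without WT 1, VC 11 or VC 12) to 5 were lower and 0 (without VC 11, 12 or 13) to 2 (without WT 1) higher. Of the relatives and partners, 1 (without any library but WT 3) to 2 were lower and 1 (without WT 1, VC 11 or VC 13) to 2 higher. The cause was not tested. No paired analysis was possible because the groups share no replicate number. Depth limits *Nr4a3*, with 1 to 20 counts in *VC Phf6,RE9a* libraries, and *Egr4*.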
